A study of Mus musculus with 8 samples.

Results

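The annexin genes were followed in the mouse myoblast line C2C12, whose cells withdraw from the cell cycle and fuse into myotubes in low serum, after transfection with an siRNA against Fam129b (siFam129b, siFAM129B in the labels) or with the control siRNA siNC. There were 4 siFam129b and 4 siNC libraries, and all 8 carried the same treatment label, muscle differentiation. RNA was selected with poly(T) and sequenced, and the authors deposited 1 FPKM value (fragments mapped to a gene, scaled to its length and to the depth of the library) for each gene and library. The set comprised 9 of the 21879 genes in the table, namely Anxa1 to Anxa8 and Anxa11, and all 9 passed a filter of a mean of 1 FPKM, as did 11025 genes in all. The family was chosen by a measured value, the FPKM of Anxa8, which had been seen to be higher with siFam129b in these same libraries. The values of Anxa8 are therefore a description with no test, and the question asked was whether the other 8 genes followed it. Cells were grown in 10% fetal bovine serum and switched to 2% horse serum for differentiation, per the labels' protocols, which state neither how long they stayed there nor whether replicates were separate cultures. The p-values therefore reflect the variation among these libraries alone, and that variation may be technical.

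Annexins are cytosolic proteins that bind acidic phospholipids when calcium rises. They share a conserved core of repeated helical domains that holds the calcium sites, and each has its own amino-terminal tail, through which several of them bind S100 proteins. In muscle fibres they gather at sites of membrane injury, where annexins A1, A2, A5 and A6 take part in sealing the lesion together with dysferlin.

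The promoter windows of Anxa8 and Anxa2 are shown because these were the members whose siFam129b and siNC values did not overlap. The sequences are RefSeq windows on build GRCm38.p6, of 250 bases before to 50 bases after the annotated start, 5′ to 3′ on the + strand. The Anxa8 window lies at chr14:34085729-34086028 and the Anxa2 window at chr9:69453433-69453732. Capitals mark matches, on either strand, to the E-box CANNTG, the TEAD site GGAATG, the AP-1 site TGANTCA, the TATA box TATAAA or the GC box GGGCGG.
Anxa8: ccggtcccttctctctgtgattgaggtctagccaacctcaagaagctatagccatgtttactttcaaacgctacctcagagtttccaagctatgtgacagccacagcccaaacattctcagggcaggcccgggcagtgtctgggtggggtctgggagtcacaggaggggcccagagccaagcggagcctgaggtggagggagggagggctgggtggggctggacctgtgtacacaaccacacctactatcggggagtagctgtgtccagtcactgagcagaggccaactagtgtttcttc
Anxa2: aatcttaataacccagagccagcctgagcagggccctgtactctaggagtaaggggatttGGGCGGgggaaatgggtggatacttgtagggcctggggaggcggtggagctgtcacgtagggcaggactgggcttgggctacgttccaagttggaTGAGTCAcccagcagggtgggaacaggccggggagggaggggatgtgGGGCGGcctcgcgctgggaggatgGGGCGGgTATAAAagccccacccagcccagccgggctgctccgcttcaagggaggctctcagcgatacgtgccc

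The Anxa2 window held 3 GC boxes, 1 AP-1 site and 1 TATA box, and the Anxa8 window held no match to any of the motifs searched. Of 32851 windows of the same length, 35.7% held a GC box, 7.81% an AP-1 site, 13.6% a TATA box, 72.3% an E-box and 14.7% a TEAD site. These matches describe the letters only, and no measurement of binding was made. Windows were found for 7 of the 9 genes. Anxa8 shares chromosome 14 with Anxa7 and Anxa11, whose log2 differences were 0.03 ± 0.07 and 0.07 ± 0.10 (SE). Of the 8 genes of the table nearest to Anxa8 in the RefSeq order, 4 on each side, Glud1, the mitochondrial glutamate dehydrogenase, had a log2 difference of -0.10 ± 0.08 (SE). The other 7 were at most 0.320 FPKM in any library.

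In each library most annexin transcripts came from Anxa2 and Anxa1. On the FPKM scale, which is per length, Anxa2 averaged 843 FPKM over the 8 libraries and ranked 33 among the 11025 tested genes. Anxa2 forms a complex with S100a10 under the plasma membrane and at the cell surface, where it binds plasminogen and its activators. Anxa1, the glucocorticoid-induced inhibitor of phospholipase A2, averaged 512 FPKM and ranked 79. Together these genes made up 58.9% to 63.2% of the summed annexin FPKM in siFam129b libraries and 58.7% to 59.2% in siNC libraries. Without siFam129b library 4 the highest siFam129b share was 59.4%.

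Below them came Anxa6, Anxa5, Anxa3 and Anxa4 at means of 232, 198, 184 and 163 FPKM, then Anxa7 at 90.2, Anxa8 at 33.4 and Anxa11 at 16.8 FPKM. Across libraries, the levels of Anxa6, Anxa5, Anxa3 and Anxa4 overlapped between each gene and the next in that order. Within a library, Anxa6 lay above Anxa5 in 8 of 8, Anxa5 above Anxa3 in 7 of 8 and Anxa3 above Anxa4 in 7 of 8. For every other neighbouring pair the lowest value of the higher gene lay above the highest value of the lower one. Of the remaining annexin genes, Anxa9 had means of 3.11 ± 0.366 FPKM in siFam129b libraries and 2.86 ± 0.357 FPKM in siNC libraries (SD, n = 4 each), Anxa13 was at most 0.225 FPKM, and Anxa10 was listed at 0 in every library. The 9 genes summed to between 2211 and 2762 FPKM in siFam129b libraries and between 2104 and 2237 FPKM in siNC libraries, of which Anxa8 made up 1.68% ± 0.214 after siFam129b, against 1.23% ± 0.213 after siNC (SD, n = 4 each).

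**Figure D1:**
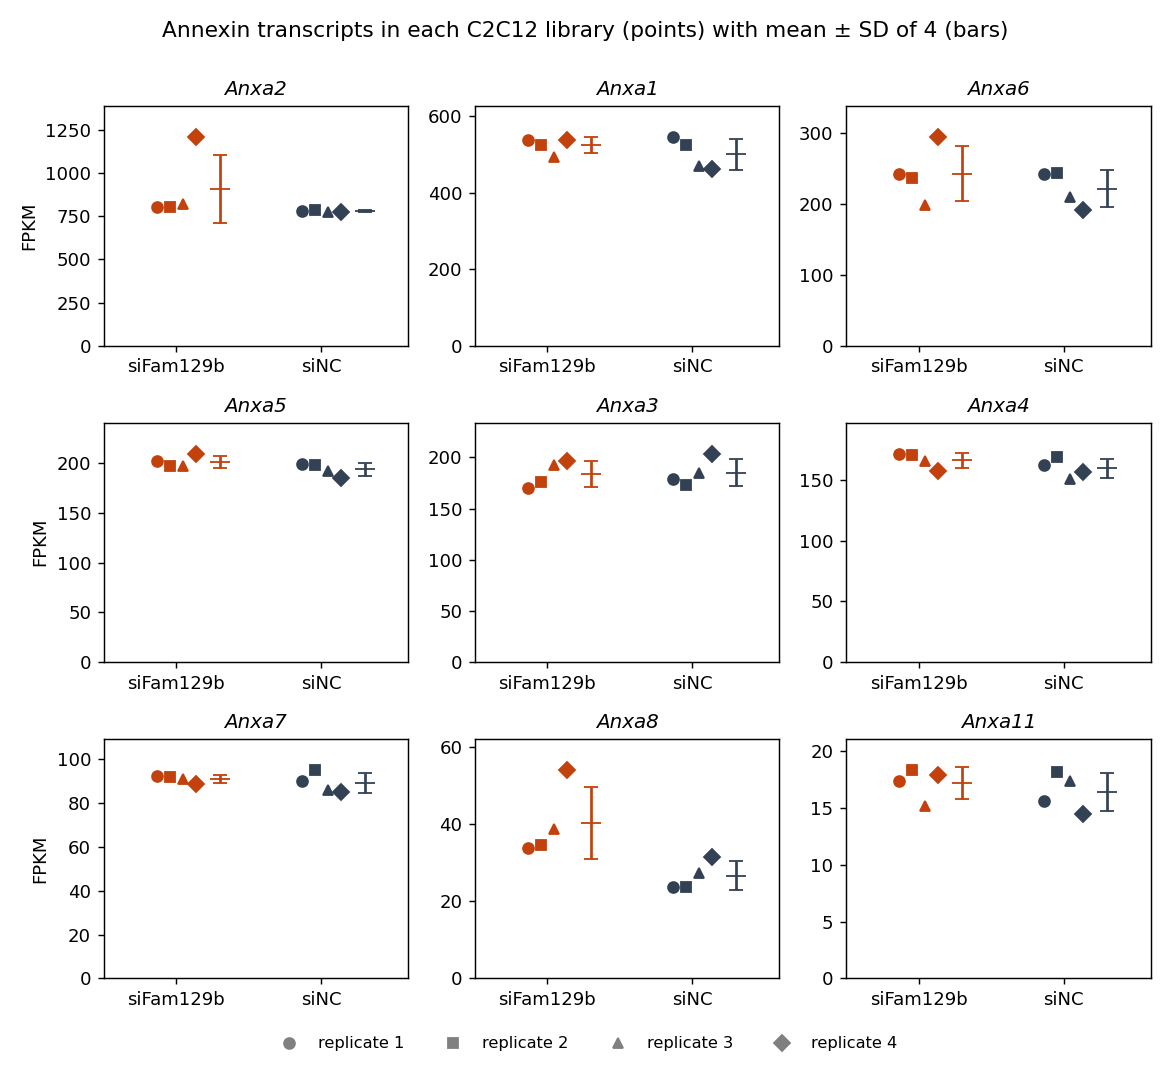
FPKM of each annexin gene in the 4 siFam129b libraries (left of each panel) and the 4 siNC libraries (right), 1 point per library and marker shape by replicate number, with bars for mean ± SD of 4; every vertical axis starts at 0. The groups of Anxa8 and Anxa2 do not overlap, and the highest Anxa2 point, at 1205 FPKM, is siFam129b library 4.

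Anxa8, a calcium-dependent phospholipid-binding protein first described as a vascular anticoagulant, had its 4 siFam129b values above all 4 siNC values. It stood at 33.7, 34.6, 38.6 and 53.9 FPKM in siFam129b libraries 1 to 4, against 23.6, 23.6, 27.4 and 31.5 FPKM in siNC libraries 1 to 4. The groups came closest between siFam129b library 1 and siNC library 4, and in both groups library 4 was the highest. The means were 40.2 ± 9.38 FPKM with siFam129b and 26.5 ± 3.76 FPKM with siNC (SD, n = 4 each), 1.52 times the siNC level. The log2 difference was 0.57 ± 0.16 (SE), and 10 of the 11025 tested genes had a larger positive one. Without siFam129b library 4 the siFam129b mean was 35.6 ± 2.63 FPKM (SD, n = 3), 1.34 times the siNC mean, and the log2 difference was 0.42 ± 0.10 (SE). These are the values that led to the choice of the family. Reads recovered from the FPKM ratios numbered between 1500 and 3254 for Anxa8 in a library, so counting error was at most 2.58% of a value, below the spread between libraries of 23.3% with siFam129b and 14.2% with siNC.

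Fam129b itself, the target of the siRNA, stood at 91.6, 87.0, 87.3 and 128 FPKM in siFam129b libraries 1 to 4, against 154, 163, 179 and 175 FPKM in siNC libraries 1 to 4. Every siFam129b value lay below every siNC value, as for 1.46% of tested genes, and the siFam129b mean was 58.8% of the siNC mean. The log2 difference of -0.78 ± 0.13 (SE) had an adjusted p of 0.784 in limma, and an adjusted p of 0.00176 without siFam129b library 4. siFam129b library 4 had the highest Fam129b value of its group and the highest Anxa8 value. Its FPKM summed to 470385, against 391336 to 398292 in the other libraries, and its values followed gene length, as described further on. The part of this in its Fam129b and Anxa8 values was not tested.

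The log2 differences of the other 8 annexin genes were smaller than that of Anxa8. The family was picked for the high value of Anxa8, which only 10 of the 11025 tested genes exceeded. That the 8 were smaller is therefore no result about the family. The test called no gene of the table over all libraries, Fam129b included, so that none of the 8 was called is no result about the family. With siFam129b library 4 left out and the replicate split described further on as a covariate, 0 of the 8 were called as well, where 0.0454% of all tested genes were. Over all libraries, 0 of the 8 passed an adjusted p of 0.05 in limma, as did 0% of the 11025 tested genes, and none had an unadjusted p under 0.05, against 2.49% of all tested genes. By limma voom on the recovered reads, 0 of the 8 and 0 of all genes were called, and 0 of the 8 had an unadjusted p under 0.05, against 254 of all genes. Their log2 differences ran from -0.0089 for Anxa3 to 0.20 for Anxa2, with a median of 0.06 where the median of all tested genes was 0.0032. The median of the 3675 shortest tested genes, which hold 5 of these 8, was 0.10. Of the 8, 7 lay above 0, beside 50.6% of all tested genes. With libraries rescaled to an equal FPKM sum 4 did, with a median of -0.0026, where the median of all tested genes was -0.0563. After quantile normalization 3 did, with a median of -0.0122, where the median of all tested genes was 0.0080. The 95% interval of each reached no higher than 0.51, the upper bound for Anxa2, and no lower than -0.21, the lower bound for Anxa3. Without siFam129b library 4 the 8 lay between -0.04 and 0.09. In replicates 1 and 2 alone their median was -0.00095, between -0.02 and 0.08, while the log2 difference of Anxa8 was 0.51.

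Anxa2 was the only one of the 8 whose siFam129b libraries all lay above all siNC libraries, a pattern shown by 1.9% of the tested genes. It stood at 801, 804, 819 and 1205 FPKM in siFam129b libraries 1 to 4, against 781, 785, 772 and 774 FPKM in siNC libraries 1 to 4. siFam129b libraries 1 to 3 lay close above the siNC libraries, and siFam129b library 4 stood far above the rest. For 3.26% of the tested genes siFam129b libraries 1 to 3 lay above every siNC library, at any distance. The log2 difference of 0.20 ± 0.14 (SE) had an adjusted p of 0.784 in limma. Without siFam129b library 4 it was 0.05 ± 0.04 (SE), with an adjusted p of 0.870 in limma. The 4 siNC values varied by only 0.750% of their mean (SD, n = 4), where the counting error of a value was at most 0.505%.

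Anxa6, whose core is a tandem duplication of the annexin core and which caps membrane lesions in muscle fibres, stood at 242, 237, 198 and 293 FPKM in siFam129b libraries 1 to 4, against 242, 244, 210 and 191 FPKM in siNC libraries 1 to 4. The groups overlapped, and libraries 3 and 4 of siNC and library 3 of siFam129b were low while siFam129b library 4 was the highest. Its log2 difference was 0.12 ± 0.13 (SE; adjusted p = 0.786 in limma), and 0.03 ± 0.10 (SE) without siFam129b library 4.

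Anxa1 stood at 538, 525, 493 and 539 FPKM in siFam129b libraries 1 to 4, against 544, 526, 470 and 462 FPKM in siNC libraries 1 to 4. The groups overlapped, and the log2 difference of 0.07 ± 0.09 (SE) had an adjusted p of 0.806 in limma. Anxa3, an annexin named as an inhibitor of phospholipase A2 and of coagulation in cell-free assays, stood at 170, 176, 193 and 196 FPKM with siFam129b, against 179, 173, 185 and 204 FPKM with siNC. Its log2 difference of -0.0089 ± 0.09 (SE; adjusted p = 0.972 in limma) was the only one below 0.

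The groups overlapped for the other 4 members, Anxa4, Anxa5, Anxa7 and Anxa11, and their log2 differences were between 0.03 and 0.07. Anxa5, which binds exposed phosphatidylserine and is used as a probe of dying cells, had means of 202 ± 5.82 FPKM in siFam129b libraries and 194 ± 6.48 FPKM in siNC libraries (SD, n = 4 each). Anxa4 averaged 167 ± 6.35 FPKM after siFam129b, against 160 ± 7.65 FPKM after siNC (SD, n = 4 each). Anxa7, also called synexin for its fusion of secretory granules, averaged 91.1 ± 1.67 FPKM after siFam129b, against 89.2 ± 4.54 FPKM after siNC (SD, n = 4 each). Anxa11, which tethers RNA granules to lysosomes and binds the calcium sensor Pdcd6, averaged 17.2 ± 1.39 FPKM after siFam129b, against 16.4 ± 1.66 FPKM after siNC (SD, n = 4 each). Reads of Anxa11 cannot be told apart here from those of its annotated antisense transcript Anxa11os, since use of strand in the counting is not given, and reads of Anxa2 may be shared with an annotated Anxa2 pseudogene.

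**Figure D2:**
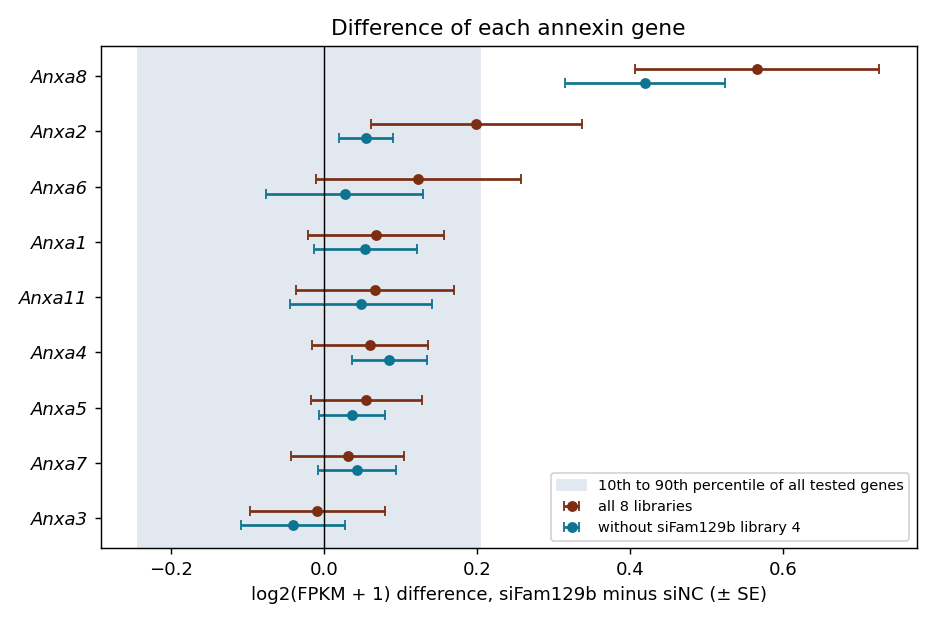
Log2(FPKM + 1) difference, siFam129b minus siNC, of each annexin gene with its SE, over all 8 libraries (brown) and without siFam129b library 4 (blue). The grey band spans the 10th to the 90th percentile of all tested genes over all 8 libraries, -0.24 to 0.20. Over all 8 libraries Anxa8 lies at 0.57, outside the band, and the other 8 genes lie at or inside it. Without siFam129b library 4, a fit for which no band is drawn, Anxa8 lies at 0.42 and the other 8 between -0.04 and 0.09.

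siFam129b library 4 stood apart from the other libraries in a way that followed gene length. Among the 3675 shortest tested genes, with lengths implied by FPKM and reads of up to 2158 bases, its log2 level minus the mean of siFam129b libraries 1 to 3 had a median of 0.38. Among the 3675 longest genes, from 3718 bases, the median was -0.45. Anxa8, with an implied length of 1845 bases, stood 0.59 above libraries 1 to 3 in that library and Anxa2, with 1557 bases, 0.58 above. Both values lay within the quartiles of the shortest genes, 0.07 to 0.62. Anxa1, Anxa3, Anxa4 and Anxa5 fall in the same length class and stood at 0.06, 0.13, -0.10 and 0.08. Anxa6, Anxa7 and Anxa11, of middle length, stood at 0.38, -0.05 and 0.08, where the median of genes of that class was 0.05. The part of length in the library 4 values of Anxa8 and Anxa2 was not tested.

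**Figure D3:**
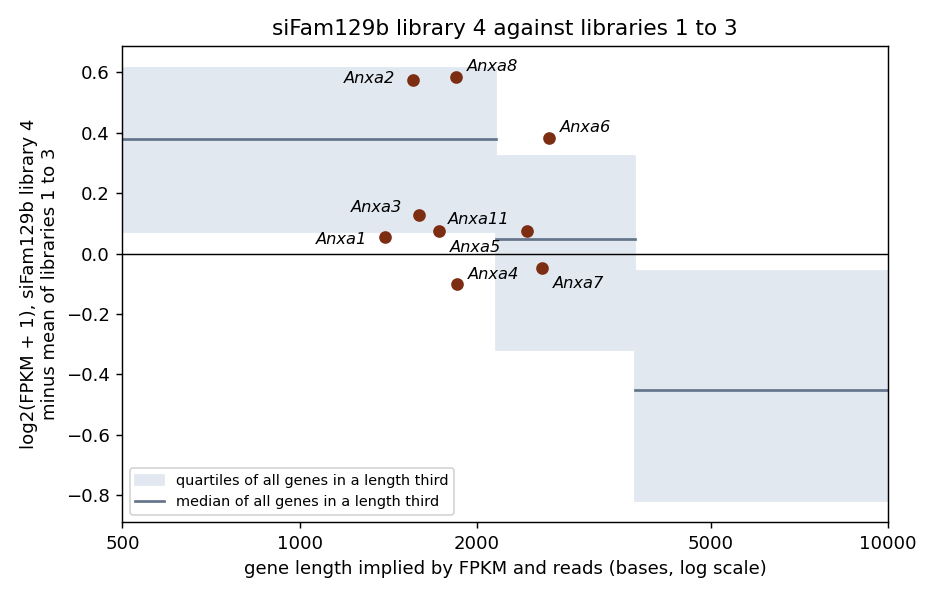
For each annexin gene, the log2(FPKM + 1) level in siFam129b library 4 minus the mean of siFam129b libraries 1 to 3, against the gene length implied by FPKM and reads (log axis, in bases); the grey bands give the quartiles and the lines the medians of all tested genes in 3 length classes of equal size. Anxa8 and Anxa2 lie at 0.59 and 0.58, in the upper part of the band for short genes, and Anxa1, Anxa3, Anxa4 and Anxa5 lie between -0.10 and 0.13.

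A second split ran within each group, between replicates 1 and 2 and replicates 3 and 4. In siNC, Anxa8 was 0.30 higher on the log2 scale in replicates 3 and 4 than in 1 and 2, a larger shift than in 93.4% of tested genes. Anxa3 was 0.14 higher there. The shift was -0.28 for Anxa6, -0.20 for Anxa1, -0.11 for Anxa7 and Anxa4, -0.08 for Anxa5 and Anxa11, and -0.02 for Anxa2. In siFam129b, library 3 minus the mean of libraries 1 and 2 gave 0.17 for Anxa8, 0.16 for Anxa3, -0.27 for Anxa6, -0.22 for Anxa11, -0.11 for Anxa1, -0.05 for Anxa4, -0.02 for Anxa7 and Anxa5, and 0.03 for Anxa2. The signs were the same in both groups for each member except Anxa2. The labels name no batch, and this split was seen in the data.

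Myotube markers were lower with siFam129b and differed along the same split in part. The 3 that were tested had log2 differences of -0.98 for Myog, -0.75 for Acta1 and -0.48 for Tmem8c, with a median of -0.75, and 0 of the 3 lay above 0 in any alternative fit. Their sizes were larger than that of Anxa8 for Myog and Acta1. In limma 0 of the 3 were called, as were 0% of all tested genes. Myog, Acta1 and Myh3 were higher in libraries 1 and 2 than in 3 and 4 of both groups, but Tmem8c in siFam129b and Ckm in siNC were not. The summed level of the 5 markers Myog, Acta1, Myh3, Ckm and Tmem8c (myomaker) ran from 8.30 to 18.1 FPKM in siFam129b libraries and from 13.1 to 36.1 FPKM in siNC libraries. Myog, the transcription factor of terminal myoblast differentiation, stood at 6.80, 6.77, 2.10 and 2.58 FPKM in siFam129b libraries 1 to 4, against 13.9, 14.3, 7.51 and 4.21 FPKM in siNC libraries 1 to 4. Within each group, libraries 1 and 2 had more Myog and less Anxa8 than libraries 3 and 4, and the Myog values of the groups overlapped. siFam129b libraries 1 and 2 had 33.7 and 34.6 FPKM of Anxa8 at 6.80 and 6.77 FPKM of Myog, while siNC library 3 had 27.4 FPKM of Anxa8 at 7.51 FPKM of Myog and siNC library 4 had 31.5 FPKM at 4.21 FPKM. The part of myotube content in the Anxa8 values was not tested, and in bulk RNA fewer cells of a type and less RNA per cell cannot be told apart. The 5 myoblast markers summed to between 286 and 435 FPKM with siFam129b, against between 280.0 and 403 FPKM with siNC. Of these, Des (log2 difference 0.10) and Myod1 (0.13) lay above 0 and Myf5 (-0.53), Pax7 (-0.10) and Cdh15 (-0.0092) below, and without siFam129b library 4 only Myod1 lay above 0. Pax7, the satellite cell factor, was at 1.03 to 1.46 FPKM, and Myf5 was lowest in siFam129b library 4, at 4.50 FPKM. Markers of other cell types were low: the 4 epithelial markers summed to at most 0.407 FPKM with siFam129b and 0.299 FPKM with siNC, with Epcam listed at 0. The 4 endothelial markers summed to at most 0.324 FPKM after siFam129b, against 0.345 FPKM after siNC. The 4 adipocyte markers summed to at most 0.932 FPKM with siFam129b and 1.27 FPKM with siNC, with Cidec listed at 0. The 4 leukocyte markers summed to at most 4.31 FPKM with siFam129b and 3.33 FPKM with siNC, mostly Cd68, with Adgre1 listed at 0. The 4 fibroblast markers, which C2C12 myoblasts also express in part, summed to between 55.1 and 77.5 FPKM with siFam129b and between 48.3 and 73.8 FPKM with siNC.

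**Figure D4:**
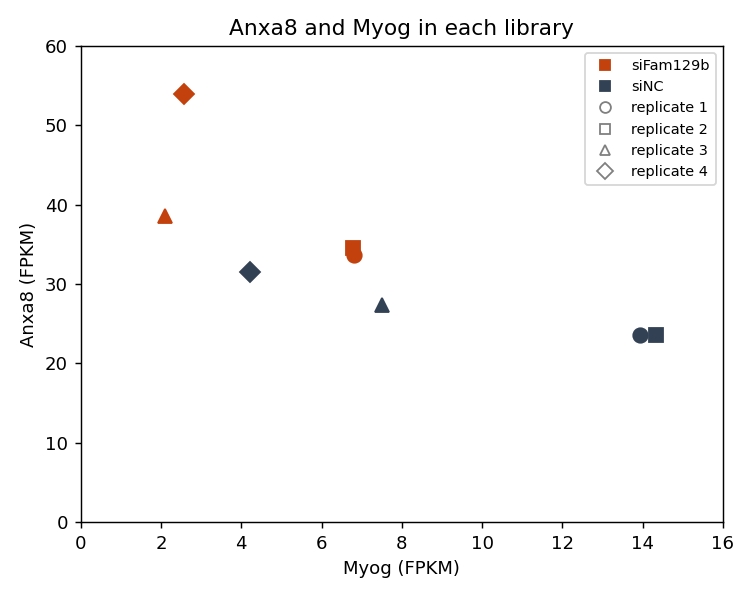
Anxa8 against Myog in each library, both in FPKM, for siFam129b (orange) and siNC (dark), marker shape by replicate number. The 4 siFam129b points lie between 33.7 and 53.9 FPKM of Anxa8 and the 4 siNC points between 23.6 and 31.5 FPKM, and within each group replicates 3 and 4 lie at less Myog and more Anxa8 than replicates 1 and 2.

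The 5 genes most like Anxa8 in profile were not annexins. With only 8 other annexins among 11024 genes, that says little about the family. By Euclidean distance between standardised log2 profiles over the 8 libraries, the nearest of 11024 genes were Pigo at 0.596, an enzyme of the glycosylphosphatidylinositol anchor, Snrpa1 at 0.663, a spliceosome protein, Arf1 at 0.686, a small GTPase of the Golgi, Ndufaf2 at 0.723, an assembly factor of respiratory complex I, and Ppp1r3f at 0.748, a regulatory subunit of protein phosphatase 1. The median distance over all genes was 3.68. Anxa2 was the nearest annexin, at 1.59 and rank 464, and the other 7 lay at 2.68 or more. Of these, Anxa4 (3.84) and Anxa7 (4.04) lay beyond the median distance and the rest short of it. Snrpa1 had means of 55.3 ± 16.2 FPKM in siFam129b libraries and 40.2 ± 4.81 FPKM in siNC libraries (SD, n = 4 each). Arf1 had means of 303 ± 18.0 FPKM in siFam129b libraries and 280.1 ± 3.45 FPKM in siNC libraries (SD, n = 4 each). These genes were picked for a profile like that of Anxa8 over the same libraries. Their higher siFam129b means follow from that choice and are no further result.

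S100 genes, some of whose products bind annexin tails, were above 0 as a group without any passing the test. Of 12 S100 genes, 8 were tested, and all 8 had a positive log2 difference, beside 50.6% of all tested genes. In limma 0 passed in either direction, as did 0% of all tested genes. The median of the 8 was 0.34, beside 0.0032 for all tested genes and 0.10 for the 3675 shortest. All 8 belonged to the 3675 shortest genes, and siFam129b library 4 was above libraries 1 to 3 for all 8, by a median of 0.56. Without that library all 8 were also above 0, with a median of 0.18, beside 0.0020 for all tested genes. All 8 were above 0 in 3 further fits too. Their median was 0.09 in replicates 1 and 2 alone, beside -0.0015 for all tested genes. With libraries rescaled to an equal FPKM sum it was 0.28, beside -0.0563. After quantile normalization it was 0.22, beside 0.0080, and the lowest of the 8 was 0.0089. The median of the short genes is not given for these fits.

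S100a11, the partner of Anxa1, was the one of the 8 tested S100 genes whose groups did not overlap, where 1.9% of all tested genes had every siFam129b library above every siNC library. It stood at 881, 854, 794 and 1202 FPKM in siFam129b libraries 1 to 4, against 722, 778, 758 and 755 FPKM in siNC libraries 1 to 4, and its log2 difference of 0.29 ± 0.13 (SE) had an adjusted p of 0.784 in limma. Without siFam129b library 4 it was 0.16. S100a10, the partner of Anxa2, stood at 698, 738, 674 and 928 FPKM with siFam129b, against 687, 702, 627 and 602 FPKM with siNC. Its groups overlapped, and its log2 difference was 0.21 ± 0.12 (SE), and 0.10 without siFam129b library 4. S100a13 and S100a1 had log2 differences of 0.44 ± 0.18 and 0.41 ± 0.19 (SE), and of 0.28 and 0.35 without that library.

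**Figure D5:**
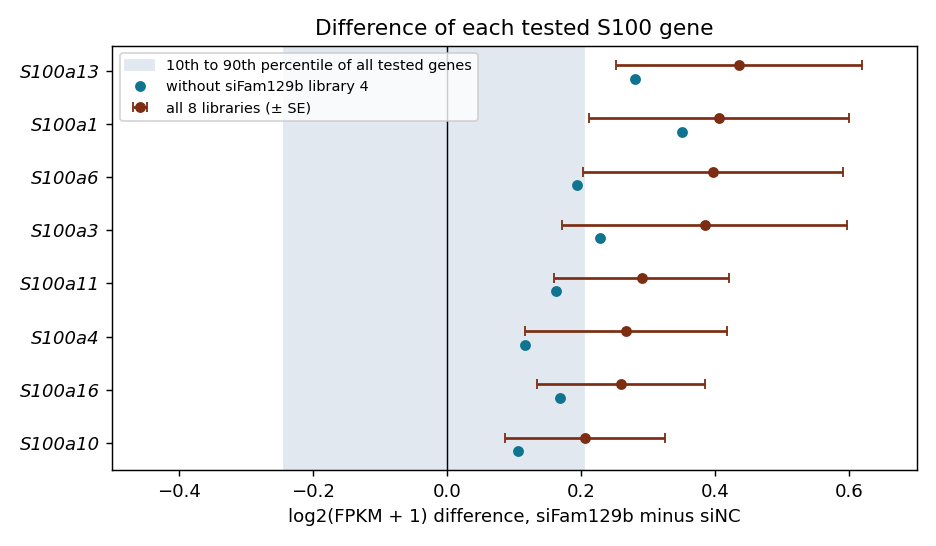
Log2(FPKM + 1) difference, siFam129b minus siNC, of the 8 tested S100 genes over all 8 libraries (brown, with SE) and without siFam129b library 4 (blue). The grey band spans the 10th to the 90th percentile of all tested genes over all 8 libraries, and no band is drawn for the fit without siFam129b library 4. All 8 lie above 0 with and without that library, and their median is 0.34 with it and 0.18 without it.

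Plasma membrane repair genes were spread around 0. Of 30 genes 27 were tested, and 16 were above 0 and 11 below. In limma 0 passed in either direction, as did 0% of all tested genes. The median log2 difference of the 27 was 0.05. With libraries rescaled to an equal FPKM sum it was -0.0115, where the median of all tested genes was -0.0563. Ptrf (cavin 1, the caveolar coat protein) stood at 355, 361, 337 and 384 FPKM in siFam129b libraries 1 to 4, against 324, 337, 325 and 312 FPKM in siNC libraries 1 to 4. The lowest siFam129b and the highest siNC value both round to 337 FPKM, with the siFam129b one above, and the log2 difference was 0.15 ± 0.08 (SE). Of the 27, 1 had every siFam129b library above every siNC library, beside 1.9% of all tested genes. In the opposite direction the groups were apart for 1 of the 27, beside 1.46% of all tested genes. Pef1, a penta-EF-hand partner of Pdcd6, had 0.28 ± 0.12 (SE), and Chmp4b, an ESCRT subunit that pinches off damaged membrane, 0.24 ± 0.13 (SE). With siFam129b library 4 left out, Pef1 had 0.20 and Chmp4b 0.12.

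Of the ferlins that act with annexins, Dysf (dysferlin) was at most 3.07 FPKM, with a log2 difference of -0.14 ± 0.12 (SE). Myof (myoferlin) stood at 117, 117, 118 and 78.3 FPKM in siFam129b libraries 1 to 4, against 116, 115, 116 and 120 FPKM in siNC libraries 1 to 4. Its low value was again in siFam129b library 4, and without that library its log2 difference was 0.0094, against -0.14 with it. These ferlins, named after their values were seen, did not pass the test, which no tested gene passed.

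Anxa2 and S100a10 bind plasminogen and its activators at the cell surface. Of 12 genes of plasminogen activation 9 were tested, 3 were above 0 and 6 below, with a median of -0.09, and 0 passed in limma, as did 0% of all tested genes. Serpinb2, an inhibitor of plasminogen activators, had a log2 difference of -0.38 ± 0.18 (SE). Eno1, a glycolytic enzyme that also binds plasminogen, had 0.20 ± 0.12 (SE), which was 0.08 without siFam129b library 4.

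Phosphatidylserine is the lipid that Anxa5 binds. Of 17 genes of its exposure and recognition 15 were tested, 5 were above 0 and 10 below, with a median of -0.07, and 0 passed in limma, as did 0% of all tested genes. Without siFam129b library 4, 11 of the 15 were above 0 and the median was 0.04, so the direction of the list turned with that library. Mfge8, a bridging protein for dying cells, had a log2 difference of 0.25 ± 0.13 (SE), which was 0.11 without it, and Gas6, a ligand of TAM receptors, had 0.23 ± 0.14 (SE).

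The formyl peptide receptors through which Anxa1 signals in leukocytes were near the floor, with Fpr1 and Fpr2 at most at 0.0477 and 0.0487 FPKM and Fpr3 listed at 0. Of the 8 genes of that list 5 were tested, and 3 were above 0 and 2 below, with a median of 0.07. In limma 0 of the 5 passed, as did 0% of all tested genes. Pla2g4a, the cytosolic phospholipase A2, had a log2 difference of -0.25 ± 0.14 (SE), Pla2g6 0.18 ± 0.15 (SE) and Ptgs1, a cyclooxygenase, 0.09 ± 0.08 (SE). These became -0.12 for Pla2g4a, 0.05 for Pla2g6 and 0.12 for Ptgs1 without siFam129b library 4.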

How the data were processed

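Poly(A) RNA of 4 siFam129b and 4 siNC libraries of C2C12 cells was sequenced, and the authors deposited 1 FPKM value per gene and library. Build mm9 is named in the submitters' processing notes; no aligner, counter or annotation was stated in the sources used here. Columns were matched to samples by letter and replicate number from the sample titles. Of 16479 genes with a value, 16478 had values in whole-number proportion across libraries, to a tolerance of 0.001 read. The smallest whole numbers in that proportion were taken as reads, and their totals were between 31466869 and 36031688 per library.

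limma 3.58.1 in R 4.3.3 was fitted with a mean-variance trend to log2(FPKM + 1) of the 11025 genes whose mean reached 1 FPKM. P-values were adjusted over all of them by Benjamini-Hochberg, with a threshold of 0.05. Fold changes on this scale understate those of low genes. The members, lists and alternatives were chosen with earlier results of these data known. Named genes were the members, the other annexins, Fam129b, the 5 genes nearest to Anxa8 and the 3 members of each list with the smallest p, of which 2 are not reported here; S100a10, Dysf and Myof were added after their values were seen. The 21 alternative fits cover pseudocount, filter, scaling, weights, voom, replicate block or covariate, subsets of replicates and each library left out. Promoter windows are from RefSeq and no coordinates of the mm9 table were converted. Libraries of a group differed by more than sampling noise, with a chi-square per gene of at least 6.04, where sampling alone gives about 1.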

Additional observations from a re-analysis of the deposited data

Results flagged for a closer look

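In siFam129b, library 4 lay far from the other 3 for Anxa2, at 1205 FPKM, with a gap to the next library of 0.955 of the range of the 4. Fam129b in siFam129b library 4, at 128 FPKM, stood apart in the same way, with a gap of 0.889 of the range. Of 20 groups of 4 libraries examined, for the 9 annexin genes and Fam129b, these 2 stood apart, where chance flags about 1 in 20. No siNC group was among them.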

How the results depend on the processing

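Over 21 alternative fits the log2 difference of Anxa8 stayed between 0.42 and 0.65, its lowest value being that without siFam129b library 4. All of them reuse the libraries in which Anxa8 was picked for being higher, so this range is a description only. None of the other 8 annexins was called in any of the 21 fits (lowest adjusted p = 0.475 in limma). Of their 168 values 153 kept their sign, those of Anxa2 (0.03 to 0.36) and Anxa11 (0.0041 to 0.12) throughout. The sign changed for Anxa1 after quantile normalization (-0.0705) and in replicates 1 and 2 alone (-0.0093), for Anxa4 with libraries rescaled to an equal FPKM sum (-0.0064) and after quantile normalization (-0.0103), for Anxa5 in the same fits (-0.0113 and -0.0294), and for Anxa7 in the same fits (-0.0348 and -0.0140) and in replicates 1 and 2 alone (-0.0055). It changed for Anxa6 in replicates 1 and 2 alone (-0.0211) and with the replicate covariate and siFam129b library 4 left out (-0.0187), and for Anxa3 in replicates 3 and 4 alone (0.0056). With single libraries left out Anxa3 ran from -0.0408 to 0.0378. With libraries rescaled to an equal FPKM sum the median of all tested genes moved down as well, from 0.0032 to -0.0563. The cause of the sign changes was not tested.

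Over all genes the count called was 0 with all libraries, 1 after quantile normalization, 2 with array weights, 5 with the replicate covariate and siFam129b library 4 left out, 10 in replicates 1 and 2 alone, and between 0 and 1 with single libraries left out, the 1 being without siFam129b library 4. The replicate block called 0 genes and 0 of the 8 annexins. Same-numbered libraries were not shown to be paired. The correlations of their deviations from the group means were 0.531, 0.250, 0.0449 and 0.124. Those of differently numbered libraries of the groups ran from -0.458 to 0.473. The counting error of the 9 genes, from the recovered reads, was at most 2.85% of a value and covers counting only.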
